A study of Mus musculus with 2 samples.

Results

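Extraembryonic mesoderm nuclei were taken from a single-nucleus multiome of gastrulating mouse embryos as the 400 barcodes with the highest score for 7 marker genes, of 11605 barcodes in the depth range and 15341 in all. The depth range was 3000 to 30000 RNA UMIs (unique molecules) and at least 2000 peak counts. The score was the mean over Fendrr, Foxf1, Tbx20, Unc5c, Pcsk5, Bmp5 and Hand1 minus the mean over the haemato-endothelial genes Fli1, Tek and Hapln1, each as the natural log of 1 plus UMIs per 10000. RNA therefore chose the nuclei, and every RNA value below describes them and tests nothing. The 400 are called members, and the remaining 11205 barcodes in the depth range are called other nuclei.

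The study measured nuclear RNA and open chromatin in the same nuclei of pooled E7.0 embryos, with 1 library per assay and no replicate, so differences are given without a test. All intervals are at the 95% level, for counting error alone, and no nucleus could be traced to an embryo. Levels are given as CPM, the count of a gene or peak scaled to a total of 1000000 over the set of nuclei: CPM alone is RNA, from UMIs, and peak CPM is accessibility, from peak counts. The labels disagree with each other. Title, age and protocol give E7.0 embryos, while tissue entries give the 8th section of the small intestine for RNA and the distal colon for accessibility, the cell type entry gives Goblet cells and the strain entry gives RedMUC298trTg for both. In members, of 8 goblet and intestinal genes, Tff3 and Clca1 had no UMI, Muc2, Fcgbp and Fabp2 had 1 each, Cdh17 had 2, Lgals4 had 4 and Vil1 had 43. Those 8 genes summed to 10.8 CPM in members and 30.9 in other nuclei. Members and other nuclei had alike depth, with medians of 11141 and 11357 UMIs and of 20859 and 19400 peak counts, and 4.5% and 6.29% of them were called doublets and kept. All 15341 barcodes carried both assays and a single library suffix.

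Extraembryonic mesoderm leaves the primitive streak and lines the amnion, chorion, yolk sac and allantois. Together with the layers beside it, it builds the membranes and the vessels that connect embryo and placenta. BMP signals from extraembryonic tissues pattern it, and Hedgehog ligand from the visceral endoderm reaches it. Blood and endothelial progenitors of the yolk sac arise from closely related mesoderm, which is why 2 further sets served for comparison. These were 400 nascent embryonic mesoderm nuclei (highest for Mesp1, Lefty2, Tbx6, Dll3, Msgn1 and Pcdh19) and 300 haemato-endothelial nuclei (highest for Fli1, Tek and Hapln1). Of the latter, 153 held a UMI of only 1 of those 3 genes. The 147 with 2 or 3 are given separately for the genes where this is stated. In the clustering on peaks given below, 155 of the 300 and 139 of the 147 fell in the haemato-endothelial-like cluster. The set of 300 is therefore a mixture, and its values include nuclei that clustered with other types. Both sets were also chosen low for the 7 marker genes, and the nascent set low for Fli1, Tek and Hapln1 as well. Both sets were chosen by RNA, so their own genes and the members' genes differ by construction.

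The regulatory DNA printed here is that of promoters whose accessibility the results turn on. Tbx20 and Unc5c are marker genes with a strong RNA difference and a small promoter difference. Svep1, Rgs5, Etv2, Cacna1c and Tnnt2 are genes whose promoters were at least 2-fold more accessible in members, chosen after their values were seen. Each run is the RefSeq promoter of GRCm38.p6, from 250 bases before to 50 after the start, 5′ to 3′ on the gene's strand, and each overlaps a peak of the files. Capitals mark AGATAA or its reverse complement, the core bound by GATA factors.
Tbx20, chr9:24774254-24774553, minus strand: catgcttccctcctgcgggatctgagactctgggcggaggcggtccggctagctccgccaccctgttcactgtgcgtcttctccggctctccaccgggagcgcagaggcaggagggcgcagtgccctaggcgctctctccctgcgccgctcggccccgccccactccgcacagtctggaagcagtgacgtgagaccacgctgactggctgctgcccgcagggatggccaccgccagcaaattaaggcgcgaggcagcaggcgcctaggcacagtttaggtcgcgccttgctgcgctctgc
Unc5c, chr3:141465314-141465613, plus strand: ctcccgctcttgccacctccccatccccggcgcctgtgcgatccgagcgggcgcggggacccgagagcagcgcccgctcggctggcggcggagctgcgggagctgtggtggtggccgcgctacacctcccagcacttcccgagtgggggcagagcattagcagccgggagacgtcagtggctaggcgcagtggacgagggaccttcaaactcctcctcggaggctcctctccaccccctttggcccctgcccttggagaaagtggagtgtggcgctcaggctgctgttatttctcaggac
Svep1, chr4:58206547-58206846, minus strand: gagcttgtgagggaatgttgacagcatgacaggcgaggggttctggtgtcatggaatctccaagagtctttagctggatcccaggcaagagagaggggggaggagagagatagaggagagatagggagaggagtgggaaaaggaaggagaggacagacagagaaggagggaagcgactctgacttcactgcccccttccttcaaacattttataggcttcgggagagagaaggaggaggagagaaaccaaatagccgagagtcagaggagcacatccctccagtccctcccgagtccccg
Rgs5, chr1:169655251-169655550, plus strand: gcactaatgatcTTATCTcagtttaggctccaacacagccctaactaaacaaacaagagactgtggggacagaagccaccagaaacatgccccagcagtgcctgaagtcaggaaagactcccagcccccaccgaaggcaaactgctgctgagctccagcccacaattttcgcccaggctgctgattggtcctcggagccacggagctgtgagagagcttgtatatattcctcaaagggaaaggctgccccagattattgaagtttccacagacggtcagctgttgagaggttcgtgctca
Etv2, chr7:30635803-30636102, minus strand: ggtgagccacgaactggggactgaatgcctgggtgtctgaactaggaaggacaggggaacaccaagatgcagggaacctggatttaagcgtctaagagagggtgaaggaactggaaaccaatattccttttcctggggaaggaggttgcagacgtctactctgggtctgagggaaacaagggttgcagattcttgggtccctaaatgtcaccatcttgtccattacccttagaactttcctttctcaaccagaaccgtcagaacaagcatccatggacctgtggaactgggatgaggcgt
Cacna1c, chr6:119196360-119196659, minus strand: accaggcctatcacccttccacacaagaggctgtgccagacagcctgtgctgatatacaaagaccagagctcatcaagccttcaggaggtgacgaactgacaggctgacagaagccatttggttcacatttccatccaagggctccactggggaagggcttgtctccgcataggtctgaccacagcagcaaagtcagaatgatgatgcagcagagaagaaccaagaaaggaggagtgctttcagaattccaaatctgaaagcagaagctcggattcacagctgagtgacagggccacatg
Tnnt2, chr1:135836084-135836383, plus strand: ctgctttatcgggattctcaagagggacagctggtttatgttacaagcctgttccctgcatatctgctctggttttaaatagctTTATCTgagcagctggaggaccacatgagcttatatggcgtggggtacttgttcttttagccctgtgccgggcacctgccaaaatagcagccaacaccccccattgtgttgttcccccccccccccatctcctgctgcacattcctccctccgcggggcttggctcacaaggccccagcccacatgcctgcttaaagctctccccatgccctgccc

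The marker promoters of Tbx20 and Unc5c each held 68.3% G and C. Those of Svep1, Rgs5, Etv2, Cacna1c and Tnnt2 held 54.3%, 52.3%, 50.7%, 51.3% and 55.7%. Rgs5 and Tnnt2 each carry 1 GATA core, which begins at base 13 in Rgs5 and at base 85 in Tnnt2, counted from the 5′ end of the run.

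Fendrr, a long noncoding RNA transcribed away from Foxf1, had 69.2 CPM in members, 1.10 in other nuclei, 0.421 in nascent mesoderm and 0.608 in haemato-endothelial nuclei. Foxf1, a forkhead factor of extraembryonic and lateral mesoderm, had 65.9, 1.92, 2.11 and 1.83 CPM in the same order. Both were high in members alone among these sets, and the 2 comparison sets had been chosen low for them. Tbx20, a T-box factor of the heart and lateral mesoderm, stood at 297.6, 17.8, 23.6 and 33.2 CPM. Hand1, a basic helix-loop-helix factor needed in the extraembryonic mesoderm and heart, stood at 134.7, 14.0, 4.84 and 5.78. Among the factors, Tbx20 and Hand1 had the higher level in other nuclei, and Hand1 is also a trophoblast gene.

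Bmp5, a BMP ligand, had 114.0 CPM in members, 3.66 in other nuclei, 2.32 in nascent mesoderm and 7.91 in haemato-endothelial nuclei. Unc5c, a netrin receptor, stood at 1437, 34.7, 20.4 and 307.6 CPM. Pcsk5, a proprotein convertase that cleaves growth factor precursors, stood at 808.7, 42.8, 56.9 and 151.8. Unc5c and Pcsk5 were thus shared in part with the haemato-endothelial nuclei. In the 147 of these with 2 or 3 of their genes, Unc5c reached 546.1 and Pcsk5 269.2 CPM, Tbx20 54.4, Bmp5 14.4 and Hand1 8.88. Of the subtracted genes, Fli1 had 33 UMIs in members, Hapln1 19 and Tek 3.

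**Figure D1:**
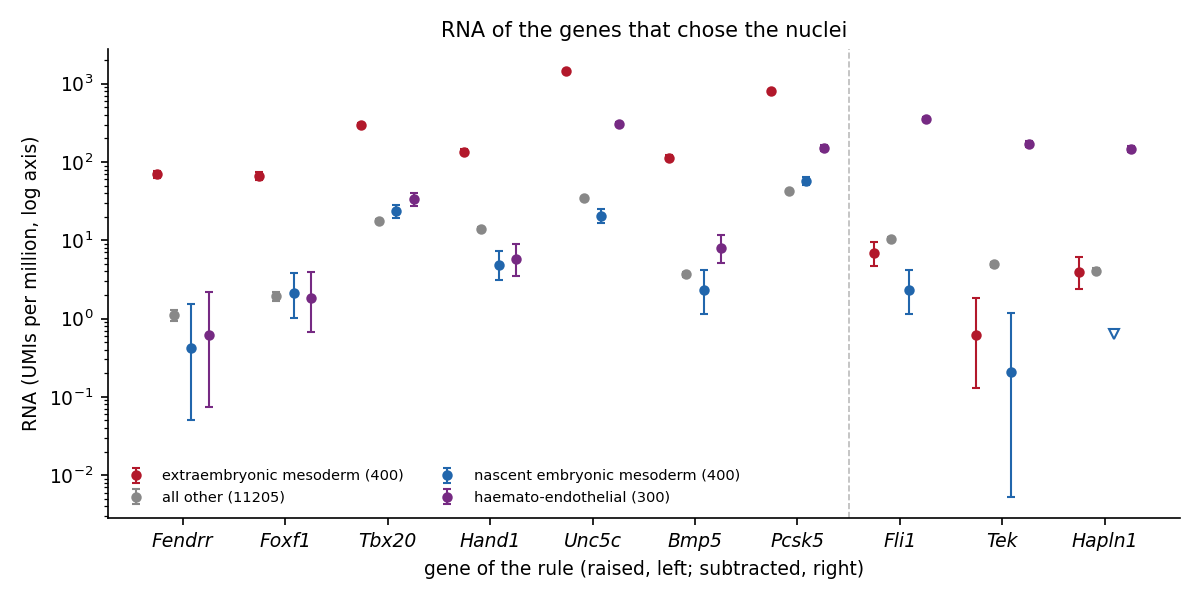
RNA of the 10 genes of the rule as CPM on a log axis, summed over members (400 nuclei), other nuclei (11205), nascent embryonic mesoderm (400) and haemato-endothelial nuclei (300), with 95% Poisson intervals; the open triangle marks the level of 3 UMIs where no UMI was found (Hapln1 in nascent mesoderm). Unc5c and Pcsk5 also stand out in the haemato-endothelial set, at 307.6 and 151.8 CPM.

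Single nuclei were uneven. No member held fewer than 2 of the 7 genes, 32.8% held 5 and 7.5% held all 7, while 60% of other nuclei held none. Unc5c was seen in 96.5% of members, Pcsk5 in 92.3%, Tbx20 in 87.5%, Hand1 in 68.0%, Bmp5 in 53.5%, Fendrr in 49.0% and Foxf1 in 46.0%. In 2490 visceral-endoderm-like nuclei, with a median of 13746 UMIs, the same shares were 20.5%, 12.8%, 14.0%, 7.79%, 1.53%, 0.482% and 1.49%. Thinned to 3000 UMIs per nucleus, members showed Unc5c in 82.8%, Pcsk5 in 73.9%, Tbx20 in 55.0%, Hand1 in 31.1%, Bmp5 in 25.8%, Fendrr in 18.1% and Foxf1 in 17.4%. Visceral-endoderm-like nuclei then showed 8.46%, 3.75%, 3.96%, 1.64%, 0.339%, 0.0688% and 0.365%.

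The boundary of the set fell within a continuum. The score was 1.92 at rank 1, 1.01 at rank 200, 0.720565 at rank 400 and 0.719758 at the rank after it. The 20 members just inside the boundary held 359 UMIs of the 7 genes together, and the 20 nuclei just outside held 342. Fendrr contributed 8 of these UMIs inside and 4 outside, Foxf1 6 and 3, and Bmp5 8 and 16.

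Peak counts did not enter the score, although a minimum of 2000 per nucleus was part of the depth range and they came from the same nuclei. The promoter peaks of the 7 genes (8 peaks) summed to 210.1 peak CPM in members, 133.9 in other nuclei, 145.8 in nascent mesoderm and 153.9 in haemato-endothelial nuclei. Members were 1.57-fold higher (1.47 to 1.68) than other nuclei, 1.44-fold (1.30 to 1.59) than nascent mesoderm and 1.37-fold (1.22 to 1.53) than haemato-endothelial nuclei. The 74 distal peaks within 50000 bp of these genes gave 461.2 peak CPM in members, 279.3 in other nuclei, 344.7 in nascent mesoderm and 304.5 in haemato-endothelial nuclei. That made members 1.65-fold (1.58 to 1.73) higher than other nuclei. The RNA of the 7 genes, which chose the members, stood from 9.59-fold higher for Hand1 to 63.1-fold for Fendrr.

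Promoters were at least 1.5-fold more accessible in members for 3 of the 7 genes, where 3.30% of the 18466 promoters counted passed that fold upward. The 3 were Hand1, Fendrr and Foxf1, the last 2 sharing a peak. The Hand1 promoter as a whole, 3 peaks, stood at 2.01-fold (1.77 to 2.27), and 2 of its peaks, chr11:57832540-57833057 and chr11:57833588-57834330, at 1.63-fold (1.28 to 2.04) and 0.97-fold (0.60 to 1.48). Its remaining peak, chr11:57831700-57832428, had 37.7 peak CPM in members, 14.5 in other nuclei, 14.2 in nascent mesoderm and 17.4 in haemato-endothelial nuclei, 2.60-fold (2.21 to 3.05) over other nuclei. The peak that Fendrr and Foxf1 share, chr8:121083606-121084319, had 45, 24.9, 28.8 and 28.5 peak CPM, 1.81-fold (1.56 to 2.08). Tbx20 stood at 1.44-fold (1.26 to 1.64) and Unc5c at 1.45-fold (1.2 to 1.74), on the promoters printed above. With a promoter window of 2000 bp, Unc5c stood at 1.81-fold and so passed. Bmp5 gave 1.43-fold on 27 counts, with an interval from 0.77 to 2.45. Pcsk5, whose RNA was 18.9-fold higher, stood at 0.98-fold (0.78 to 1.22) at its promoter.

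Of the 36 distal peaks near the 7 genes with enough counts to be compared, 9 were at least 2-fold more accessible in members and 7 at least 2-fold less, where 6.18% and 19.5% of all 84624 single peaks compared passed those folds. At chr11:57864347-57865263, 32.0 kb upstream of the Hand1 start, members had 37.8 peak CPM, other nuclei 5.69, nascent mesoderm 21.8 and haemato-endothelial nuclei 8.25, 6.65-fold (5.56 to 7.91) over other nuclei. Its neighbour chr11:57866196-57867119, 33.8 kb upstream, had 35.9, 6.47, 10.2 and 14.4 peak CPM, 5.55-fold (4.63 to 6.61). Around Fendrr and Foxf1, chr8:121073297-121074157 was 3.22-fold (2.69 to 3.83) and chr8:121090653-121091502 3.23-fold (2.57 to 4.01) higher. Nascent mesoderm had most of that signal, with 24.2 peak CPM at the first against 33.5 in members and 10.4 in other nuclei. A peak 11.5 kb upstream of the Pcsk5 start, chr19:17848673-17849587, was 4.86-fold (3.38 to 6.82) higher, on 77 counts in members and 439 in other nuclei. It thus passed the minimum of 500 counts only through the members. So did chr3:141419282-141420156, 45.5 kb upstream of the Unc5c start and among the 9 higher, with 56 and 478 counts. Another, 2.70 kb downstream of the Unc5c start at chr3:141467517-141468317, was 3.79-fold (2.82 to 5.0) higher. Among the less accessible, chr8:121075798-121076475 near Fendrr and Foxf1 had 0.970 peak CPM in members against 4.32 in other nuclei, and chr11:57829919-57830601, 2.56 kb downstream of the Hand1 start, had 2.30 against 8.27. Around Fendrr and Foxf1 3 peaks were higher and 3 lower, and around Bmp5 none of the 3 peaks compared was higher and 1 was lower. These counts depend on the minimum of 500 counts, which leaves out peaks with few counts over all nuclei. Peaks below it, looked up after their values were seen, include chr9:75768838-75769724, 6.08 kb upstream of the Bmp5 start, with 8.73 peak CPM in members against 1.04 in other nuclei, 8.41-fold (5.72 to 12.1) on 72 counts in members. Another, chr11:57847385-57848215, 15 kb upstream of the Hand1 start, had 12.8 against 1.10 peak CPM, 11.7-fold (8.43 to 16.0) on 106 counts. Upstream of Tbx20, chr9:24785223-24786131, chr9:24787532-24788493 and chr9:24811234-24812134 were 10.6-fold, 9.01-fold and 8.07-fold higher, and upstream of Pcsk5 chr19:17871653-17872460 was 9.23-fold higher.

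**Figure D2:**
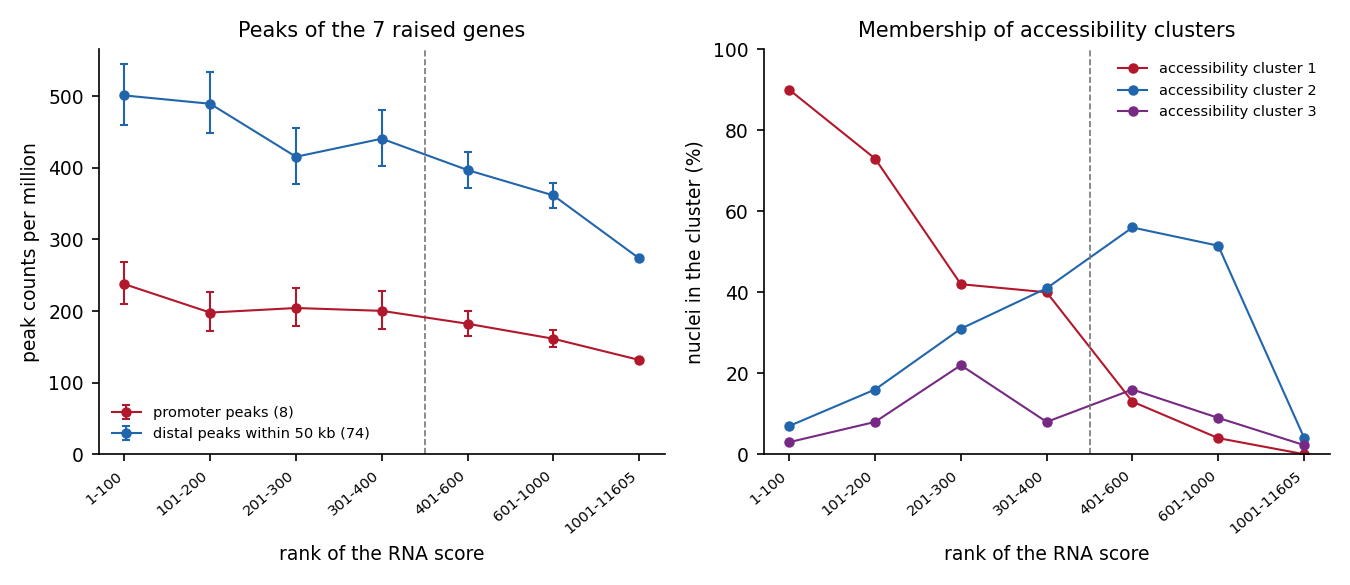
Left, summed peak CPM of the 8 promoter and 74 distal peaks of the 7 marker genes along the rank of the RNA score, with 95% intervals; right, the percentage of nuclei of each rank range in 3 accessibility clusters. The dashed line is the boundary of the set at rank 400; promoter signal falls from 237.5 for the 100 highest scores to 131.8 beyond rank 1000, with no step at the line.

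Accessibility was highest at the highest scores and lowest beyond rank 1000, with little order among the members in between. Promoter peaks of the 7 genes gave 237.5, 197.8, 204.2 and 200.2 peak CPM in the 4 successive sets of 100 members from highest to lowest score, 182.2 in the 200 nuclei just outside the boundary, 161.3 in the 400 after those and 131.8 beyond. Distal peaks gave 500.9, 489.3, 415.3 and 440.5 peak CPM in the 4 sets of members, then 396.8, 361.4 and 273.5. Neighbouring ranges on either side of rank 400 had overlapping intervals in both. Median peak counts per nucleus ran from 19258 to 22208 over the ranges, without following the order of the ranks.

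Clustering on peaks alone, at resolution 1, put 342 of 400 members (85.5%, exact binomial interval 81.7% to 88.8%) in 1 cluster of 1197 nuclei. That cluster also held 168 of the 400 nascent mesoderm nuclei, and 39 members fell in a haemato-endothelial-like cluster of 347 nuclei. At resolution 2, a setting used after the data had been seen, the members divided. There 245 members (61.3%, 56.3% to 66.1%) lay in a cluster of 291 nuclei, of which they made up 84.2% (79.5% to 88.2%). Its RNA was led by the marker list of the rule, and it is called cluster 1. Cluster 2 held 95 members among 852 nuclei led by embryonic mesoderm markers, and cluster 3 held 41 members among 351 nuclei led by haemato-endothelial markers. The remaining 19 members were spread over other clusters and held most of the 18 doublet calls among members. Of the 100 members of highest score 90% were in cluster 1, of the 100 of lowest score 40% and of the 200 nuclei just outside the boundary 13%. Cluster 1 also held 46 non-members, with scores of 0.136 to 0.719.

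The RNA of members differed with the accessibility cluster they fell in. Members in cluster 1 had 66.1 CPM of Pkp2 (plakophilin 2, a desmosome component), against 3.44 in cluster 2, on 4 UMIs, and 62.2 in cluster 3. Spin2c stood at 101.8 against 11.2 CPM, Dlk1, an imprinted Notch-family ligand, at 61.8 against 8.59, and Ryr2, the cardiac ryanodine receptor, at 148.9 against 24.1. In all, 1.95% of the 7222 genes compared were at least 2-fold higher in cluster 1 than in cluster 2. The markers Unc5c (1955 against 580.8 CPM), Fendrr (87.9 against 36.1) and Bmp4 (178.2 against 53.3) went the same way. So did Hand1 (172.2 against 91.9), Foxf1 (83.2 against 45.5) and Tbx20 (331.1 against 248.3), while Bmp5 stood at 125.0 and 124.6. Pcsk5 went the other way, with 727.9 CPM in cluster 1, 976.0 in cluster 2 and 1083 in cluster 3.

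Members in cluster 2 had more Lhx1, a homeobox factor of early mesoderm, at 607.4 CPM against 89.3 in cluster 1 and 100.3 in cluster 3. Rimbp2 (99.7 against 8.93 in cluster 1), Cacnb4 (219.1 against 28.6) and Robo1 (1629 against 346.8, with 972.9 in cluster 3) followed, and so did Pcdh19, a protocadherin of nascent mesoderm, at 132.3 against 31.4. Of all genes compared, 1.5% were at least 2-fold higher in cluster 2 than in cluster 1. Members in cluster 3 had 284.9 CPM of Etv2, the ETS factor that starts the haemato-endothelial programme, against 58.9 in cluster 1 and 32.6 in cluster 2. Flt1, a VEGF receptor, stood at 124.4 against 45 in cluster 1, and Kdr at 429.3 against 249.7. Here 0.997% of genes were at least 2-fold higher than in cluster 1. Frem1 (48.1 against 210.4 CPM) and Robo2 (24.1 against 136.4) were lower in cluster 3. Of the genes compared, 2.31% were at least 2-fold higher in cluster 1 than in cluster 3. Median UMIs per nucleus were 10592, 11355 and 11905 in clusters 1, 2 and 3, and 6, 1 and 1 members in them were called doublets.

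**Figure D3:**
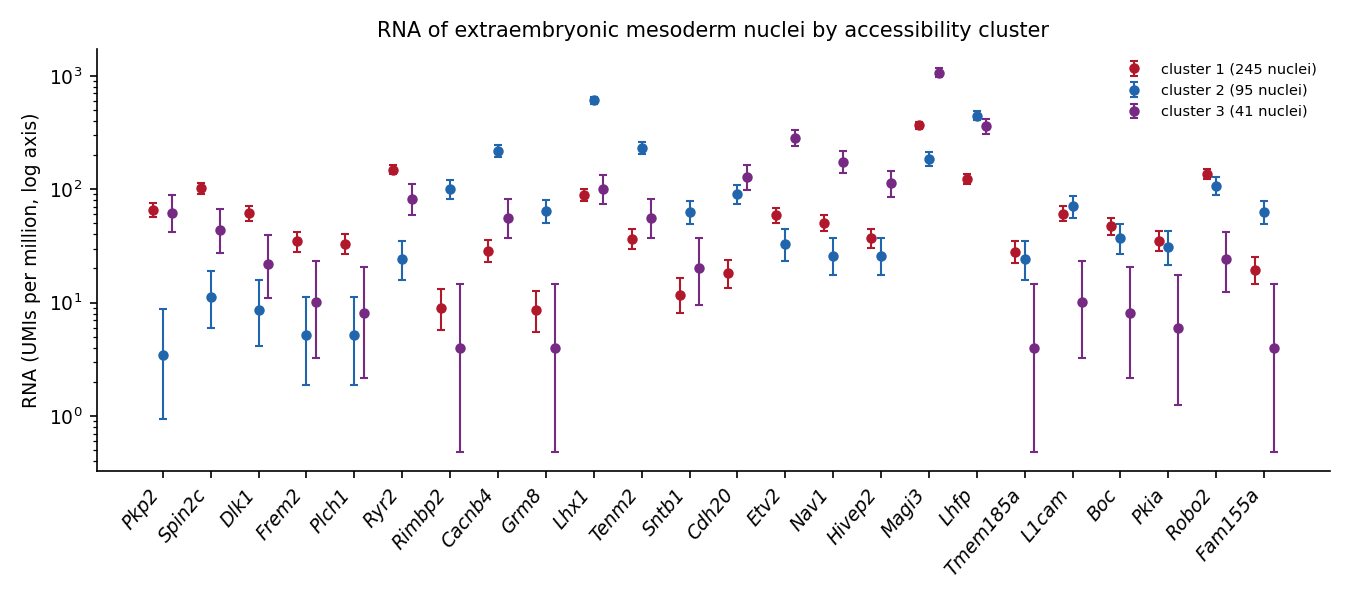
RNA of members by the accessibility cluster they fell in (cluster 1, 245 nuclei; cluster 2, 95; cluster 3, 41), as CPM on a log axis with 95% Poisson intervals, for the 6 genes with the largest fold in each of 4 contrasts between clusters. Lhx1 reaches 607.4 in cluster 2 and Etv2 284.9 in cluster 3, each above the 89.3 and 58.9 of cluster 1.

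Of all 14345 genes counted, those of the rule included, 647 (4.51%) were at least 2-fold higher in members than in other nuclei, and 1735 (12.1%) at least 2-fold lower. The 20 highest named here leave out the genes of the rule. Svep1, a large adhesion protein of the extracellular matrix, had 41.2 CPM in members and 1.79 in other nuclei, 23.1-fold (19.1 to 27.9). Fbln2, fibulin 2, had 71.5 and 4.55, and Lama4, a laminin chain of vessel basement membranes, 59.9 and 4.32. Col4a6, a collagen IV chain, had 140.1 and 16.3 CPM, and Frem1, another basement membrane protein, 147.2 and 14.5. Cdh8, a cadherin, had 189.8 and 12.6.

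Vegfc, the lymphangiogenic VEGF ligand, stood at 138.7 against 12.1 CPM, and Rgs5, a G-protein regulator known from pericytes, at 30.5 against 2.75. Daam2, a formin of the Wnt pathway, had 41.5 against 3.93 and Siah2, a ubiquitin ligase, 89.5 against 8.13. Isl1, a LIM homeobox factor of amnion and second heart field, had 28.8 against 2.77. The others were Pmp22, Hspa12b, Sh3rf3, Nhsl2, Vstm2b, Crb2, Kif26b, Hoxb3os and Haglr, at 8.58-fold to 15.8-fold. Hoxb3os and Haglr lie antisense to Hox genes, and whether the counting used strand is not given in the sources used here.

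All 20 were also at least 2-fold higher in members than in nascent mesoderm, where 6.03% of the 13058 genes counted passed that fold. In all, 19 of the 20 were so against the haemato-endothelial nuclei (5.28% of 12864 genes) and 18 against the 147 stricter ones (7.86% of 12296). Lama4 was the exception in both, at 34.7 CPM in haemato-endothelial nuclei and 55.5 in the stricter ones, against 59.9 in members. Kif26b fell below in the stricter set, at 79.4 against 145.7 CPM. Pmp22 stood at 41.6 in the stricter set against 83.7. These 20 genes had been chosen for the highest folds over other nuclei, which include the comparison sets. Most were therefore bound to pass, and their counts beside the shares of all genes test nothing.

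At the other end, Kcnh8, a potassium channel gene, had 2.28 CPM in members and 41.2 in other nuclei. Esrrb, an orphan receptor of trophoblast stem cells, had 1.87 and 26.5, and Sfmbt2, an imprinted Polycomb gene of extraembryonic lineages, 45.2 and 447.8. Elavl3, Dgkb, Triml2, Ralgps1, Enpp3, Ntn1 and Mcf2 completed the 10 lowest, at 9.19-fold to 13.0-fold lower. With the 800 highest scores as members, Kcnh8, Esrrb and Sfmbt2 stood at 0.146, 0.134 and 0.184 of their level in other nuclei, against 0.0553, 0.0704 and 0.101 with 400. Elavl3, Dgkb, Triml2 and Ralgps1 then stood at 0.162, 0.143, 0.207 and 0.220, against 0.0770, 0.0823, 0.0980 and 0.104. Without doublet calls Kcnh8 stood at 0.0211 and Mcf2 at 0.0660, against 0.109 for Mcf2 with them. Ntn1 encodes netrin 1, a ligand of the receptor Unc5c, and had 8.50 CPM in members and 78.7 in other nuclei, 0.108 of that level, which was 0.0166 with the 200 highest scores and 0.182 with the 800 highest. All 11 visceral endoderm markers were at least 2-fold lower in members, as were 12.1% of all genes, summing to 872.3 CPM against 3987 in other nuclei. Cubn still had a UMI in 60.3% of members and 99.2% of visceral-endoderm-like nuclei, and after thinning in 23.6% and 93.6%. The same 11 markers summed to 865.4 CPM in nascent mesoderm, and what part of the members' counts was free RNA was not tested.

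Against nascent mesoderm, the genes of the rule left out, the highest fold among genes with at least 100 UMIs in members was that of Alpk3, a muscle kinase gene, with 168 UMIs in members and 2 in nascent mesoderm, 82.7-fold with an interval from 22.5 to 688.2. Nhsl2 (44.6-fold), Frem1 (25.9-fold), Lama4 (23.7-fold), Nos1ap (19.9-fold), Adgra2, Robo2, Ryr2, Amph and Pmp22 followed. Nascent mesoderm was higher for Prmt8, with 31.0 CPM against 0.622 in members, on 3 UMIs, and 4.07% of the genes counted were at least 2-fold lower in members. Mesp2 (52.9 against 2.49), Lefty2 (334.4 against 17), Foxc1 (29.9 against 2.49) and Frzb, a secreted Wnt antagonist (150.2 against 12.4), went the same way, and Lefty2 had chosen that set.

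Against haemato-endothelial nuclei, with the genes of the rule again left out, the highest genes among those with at least 100 UMIs in members were Hand2os1, Isl1, Cdh8, L1cam and Svep1, at 19.4-fold to 34.4-fold. Hand2os1 had 2 UMIs and Isl1 3 in that set, and Hand2os1 lies beside Hand2. Cacna1c, an L-type calcium channel, stood at 217.8 CPM against 14.3. In the other direction, 7.23% of genes were at least 2-fold lower in members. Ikzf1, a haematopoietic zinc finger factor, had 1 UMI in members and 41.7 CPM in haemato-endothelial nuclei. Tal1 and Lmo2, which form a complex in blood progenitors, stood at 4.56 and 4.97 CPM in members against 124.7 and 146.6. In the 147 stricter nuclei Ikzf1, Tal1 and Lmo2 stood at 71.6, 207.0 and 246.4 CPM.

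Of 8 counted genes in a list of 12 other haemato-endothelial genes, Kdr and Etv2 were at least 2-fold higher in members than in other nuclei and Gata1 was lower (0.415 against 3.41 CPM), beside 4.51% and 12.1% of all genes, with a median log2 difference of 0.02. Sox7 stood at 3.32 against 5.50 CPM and Pecam1 at 5.39 against 4.61, and Sox18, Cdh5, Cd34 and Itga2b, too low to count, had 1, 2, 1 and 4 UMIs in members. Kdr, the main VEGF receptor, had 269.6 CPM in members, 36.3 in other nuclei, 95.4 in nascent mesoderm and 319.5 in haemato-endothelial nuclei. Etv2 had 73.0, 16.7, 11.8 and 120.2. Runx1, a factor of blood formation, had 96.8, 52.0, 15.6 and 286.0. The 147 stricter haemato-endothelial nuclei had 536.7 CPM of Kdr, 192.6 of Etv2 and 456.2 of Runx1, all above the members. Along the score, Etv2 stood at 38.4, 67.9, 102.6 and 80.8 CPM in the 4 successive sets of 100 members from highest to lowest score, 98.2 in the 200 nuclei just outside the boundary, 59.5 in the 400 after those and 13.6 beyond. Among members Etv2 was thus lowest where the score was highest, and over all nuclei it was lowest beyond rank 1000. The score subtracts the haemato-endothelial genes Fli1, Tek and Hapln1, and what part this had in that order was not tested. Bmp4 stood at 182.6, 160.6, 90.8, 97.9, 47.9, 26.0 and 32.4 CPM in the same 7 ranges. Mesp1, a transient factor of early mesoderm, stood at 111.7, 135.0, 134.2, 223.6, 237.8, 237.3 and 64.8 CPM in them.

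A list of other extraembryonic mesoderm genes, chosen with earlier results of these data known, had 10 of 18 genes counted. Of these, 9 were at least 2-fold higher and none lower, where 4.51% and 12.1% of all genes passed those folds. The median log2 difference was 2.36 against -0.05 over all genes counted. Because of how the list was chosen, these values describe the members and test nothing. Prdm6, a SET-domain gene, had 1384 CPM in members against 267.4 in other nuclei, Tbx3 406.8 against 65.5 and Plac1 129.1 against 16.3. The exception was Pitx1, with 2.07 against 2.98 CPM. Prdm6 was also seen in 95.3% of visceral-endoderm-like nuclei, against 99.75% of members, and Tbx3 in 66.9% against 92%. After thinning the shares were 76.1% against 95.5% for Prdm6 and 28.7% against 63.8% for Tbx3. Neither gene was thus particular to members. Of the 8 genes too low to count, Tdo2 had 47 UMIs in members and Hand2 57. Hoxa13 and Col3a1 had none, Postn 2, Tbx4 4, Hoxa10 6 and Hoxa11 7, these being genes of the later allantois and limb or of mature mesenchyme.

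In the counts of lists that follow, 4.51% of all genes counted were at least 2-fold higher and 12.1% at least 2-fold lower. BMP ligands differed from one another. Bmp4, the ligand that the extraembryonic tissues send to the epiblast, had 131.8 CPM in members, 32.4 in other nuclei, 8.85 in nascent mesoderm and 28.6 in haemato-endothelial nuclei. With Bmp5, a gene of the rule and high by construction, it made 2 of 7 ligands at least 2-fold higher, and Bmp8b was lower. Bmp2 stood at 55.5 in members, 148.5 in haemato-endothelial nuclei and 241.4 in the stricter ones. No receptor or Smad of 10 was 2-fold higher, and Bmpr1b was lower at 64.0 against 131.9 CPM. Of 11 target genes, 4 were higher: Smad6, an inhibitory Smad (313.8 against 60.4), Msx1 (155.6 against 44.9), Msx2 (78.5 against 15.4) and Bambi, a pseudoreceptor (86.0 against 27.2). Id2 was lower, and Id1 stood at 1.76-fold. Among 6 antagonists counted, Bmper had 354.0 CPM against 56.4 and Nog 6.22 against 2.85, while Chrd stood at 1.24 against 12.7 and Chrdl1 at 2.49 against 5.11.

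Hedgehog receptors and effectors were higher in members than in other nuclei, and the ligands had few or no UMIs in members. Of 11 counted, 7 were at least 2-fold higher and none lower, beside 4.51% and 12.1% of all genes, with a median log2 difference of 1.14. Ptch1, the receptor and a direct target, had 633.2 CPM in members, 139.4 in other nuclei, 367.5 in nascent mesoderm and 146.0 in haemato-endothelial nuclei. Boc, a co-receptor, stood at 38.1 against 5.37 in other nuclei, Gli1, a target and effector, at 20.3 against 5.26, and Gli2, Gli3, Hhip and Gas1 at 2.06-fold to 2.56-fold. Against nascent mesoderm 3 were at least 2-fold higher (Gli2, Hhip and Boc) and 1 lower, beside 6.03% and 4.07% of all genes. The lower one was Gas1, with 74.2 CPM in members and 215.9 in nascent mesoderm. The ligand Ihh had 17 UMIs in all members. That was 3.52 CPM, against 6.98 in other nuclei, 2.74 in nascent mesoderm and 3.04 in haemato-endothelial nuclei, so Ihh was low in all these sets. Shh and Dhh had no UMI in members. Taken as 3 UMIs, the limit that a count of 0 allows was 0.622 CPM here.

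**Figure D4:**
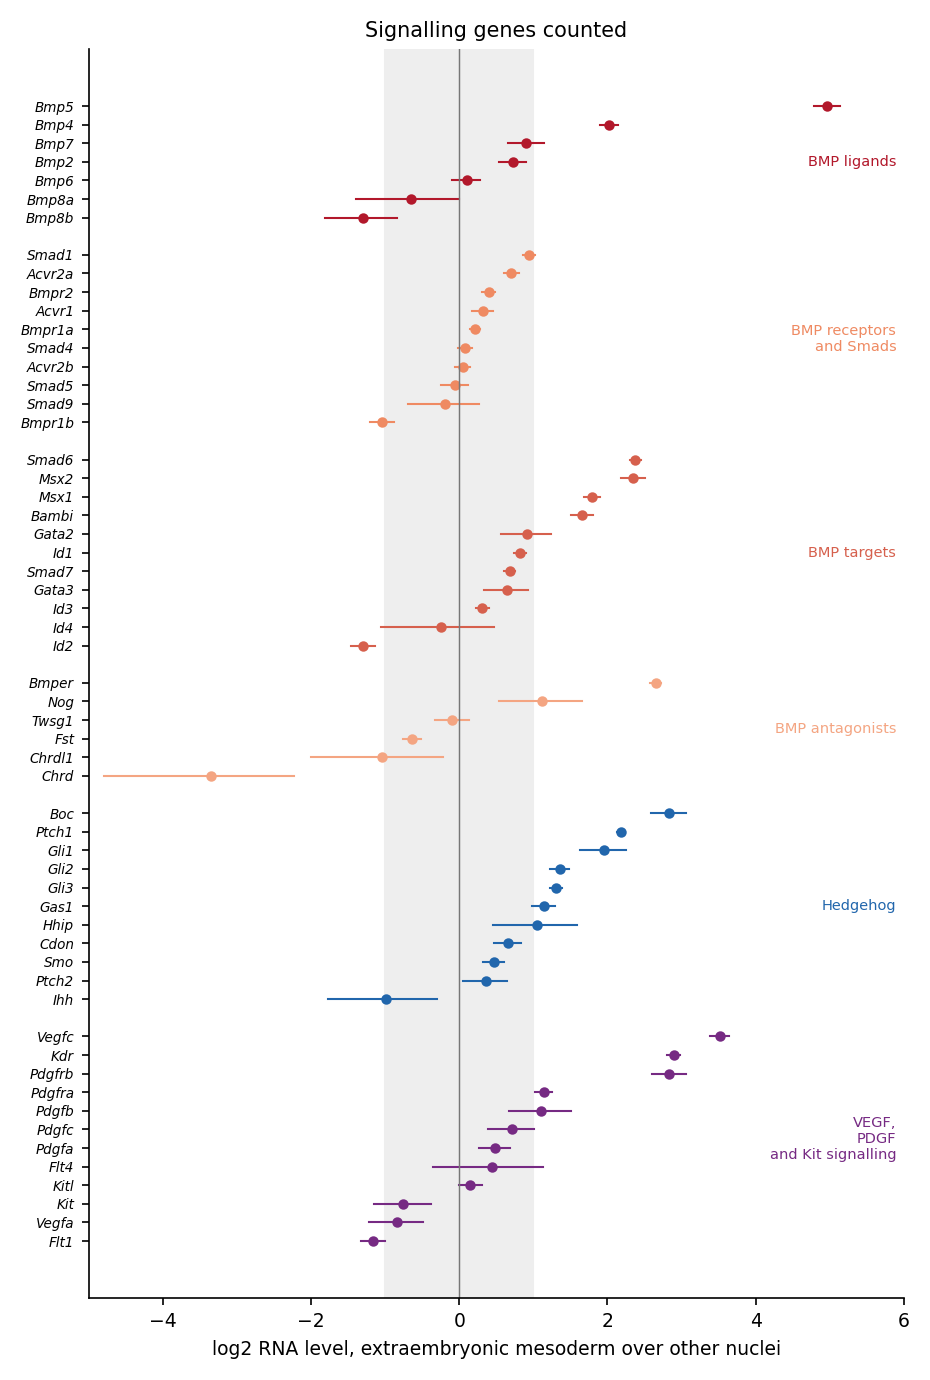
Difference in RNA level of members over other nuclei on the log2 scale for the counted genes of the BMP, Hedgehog and VEGF, PDGF and Kit lists, with 95% intervals; the grey band covers differences under 2-fold. Smad6, Msx1, Msx2, Bambi, Ptch1 and Gli1 lie to the right of the band and the BMP receptors and Smads lie in it, except Bmpr1b.

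In the remaining lists too, the shares over all genes were 4.51% higher and 12.1% lower. Against nascent mesoderm the shares were 6.03% and 4.07%. Of 11 genes of cadherins and epithelial-mesenchymal transition counted, 6 were higher, among them Cdh11 (818.0 against 113.8 CPM), Cdh2 (788.4 against 291.6) and Zeb2 (439.8 against 117.6), and the epithelial Cdh1 (40.2 against 262.2) and Epcam (85.0 against 290.6) were lower. Nascent mesoderm had like levels of Cdh11, at 665.1 CPM, and Cdh2, at 954.0. Against it, 4 genes of this list were at least 2-fold higher in members (Zeb1, Prrx2, Cdh3 and Vim) and 2 lower (Snai1 and Twist1). Of 18 matrix genes counted, 10 were higher and none lower (median log2 difference 1.17), with Tnc at 8.12-fold, Vcan at 4.63-fold and Has2, a hyaluronan synthase, at 4.18-fold. Against nascent mesoderm 7 were higher, Tnc and Has2 among them but not Vcan, and none lower. Hapln1 was also among the 7, with 19 UMIs in members and 0 in nascent mesoderm, a set chosen low for it. Cardiac and GATA factors gave 7 of 10 higher and 1 lower, the higher ones from Gata4 (2.03-fold) to Isl1 (10.4-fold), with Hand1 of the rule among them. In the VEGF, PDGF and Kit list, 5 of 12 were higher, among them Pdgfrb (40.0 against 5.61 CPM) and Pdgfra (140.5 against 63.7), and Flt1 was lower. Of 7 T-box factors counted, Tbx2, Tbx3 and Tbx20 of the rule were higher and Tbx18 was lower. Tbx2 was 13.1-fold higher (17.6 against 1.35 CPM), on 85 UMIs in members and 188 in other nuclei. Tbx2 thus passed the count minimum for genes only through the members. Of 12 FGF genes Fgf10 was 5.38-fold and Fgf3 also higher, with 5 lower. Against nascent mesoderm only Fgfr3 of them was higher and 5 were lower, and Fgf3 stood at 49.3 against 85.7 CPM. Of 14 Wnt genes, Wnt5a (5.35-fold), Rspo3, Wnt2, Wnt2b and Wnt5b were higher and 4 lower. Against nascent mesoderm only Wnt11 was higher, and Wnt2, Wnt3a, Sfrp1 and Lef1 were lower. Of 17 guidance genes counted, 7 were higher, led after Unc5c by Nrp1, a VEGF and semaphorin co-receptor, at 8.35-fold, and 4 lower. Against nascent mesoderm 6 guidance genes were higher, Unc5c of the rule among them, and 5 lower. There 7 cardiac and GATA factors were higher and none lower, but not the same 7. Gata2 and Gata3 were among them, as was Hand1 of the rule, for which that set was chosen low. Gata4, at 304.9 against 261.6 CPM, and Gata6, at 189.8 against 273, were not. In the VEGF, PDGF and Kit list 6 were then higher, Pdgfra and Pdgfrb not among them, and 1 lower. Of 8 epiblast genes, 6 were lower (Sox2, Dnmt3b, Utf1, Fgf5, L1td1 and Otx2) and none was higher. Of 10 embryonic mesoderm genes counted, 4 were higher (Mesp1, Pcdh19, Fgf3 and Rspo3) and Mesp2 was lower. That list of 12 summed to 758.8 CPM in members, 297.9 in other nuclei and 1865.5 in nascent mesoderm, a set chosen by some of its genes. Of 8 amnion and surface ectoderm genes, Isl1 was higher and Wnt6, Grhl3 and Krt19 were lower.

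Of 589 genes at least 2-fold higher in RNA and counted at the promoter, 14.8% had a promoter at least 1.5-fold more accessible, against 1.5% of the 13157 genes counted in both. Without the genes of the rule the share was 14.4%. Of 1509 genes lower in RNA, 26.2% had a promoter at least 1.5-fold less accessible, against 4.96% of all, and over all promoters counted 8.49% passed that fold downward. Distal peaks within 50000 bp of the genes higher in RNA were at least 2-fold more accessible in 15.2% of 3844 cases, against 6.46% near all genes counted. They were at least 2-fold less accessible in 13.8%, against 22.2%, and the median log2 difference was 0.03, against -0.21. Of the 20 named genes, 8 passed 1.5-fold at the promoter, led by Rgs5 at 3.45-fold (2.83 to 4.17) and Svep1 at 2.10-fold (1.70 to 2.56). With a promoter window of 2000 bp, Fbln2 stood at 2.93-fold against 1.42 and Nhsl2 at 1.77-fold against 1.04, so both passed, while Vstm2b (1.44-fold against 1.59) and Kif26b (1.32-fold against 1.64) no longer did. Col4a6, at 0.81-fold (0.53 to 1.17), was the only 1 of the 20 under 1, and Frem1 and Crb2 stood at 1.01-fold and 1.03-fold.

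**Figure D5:**
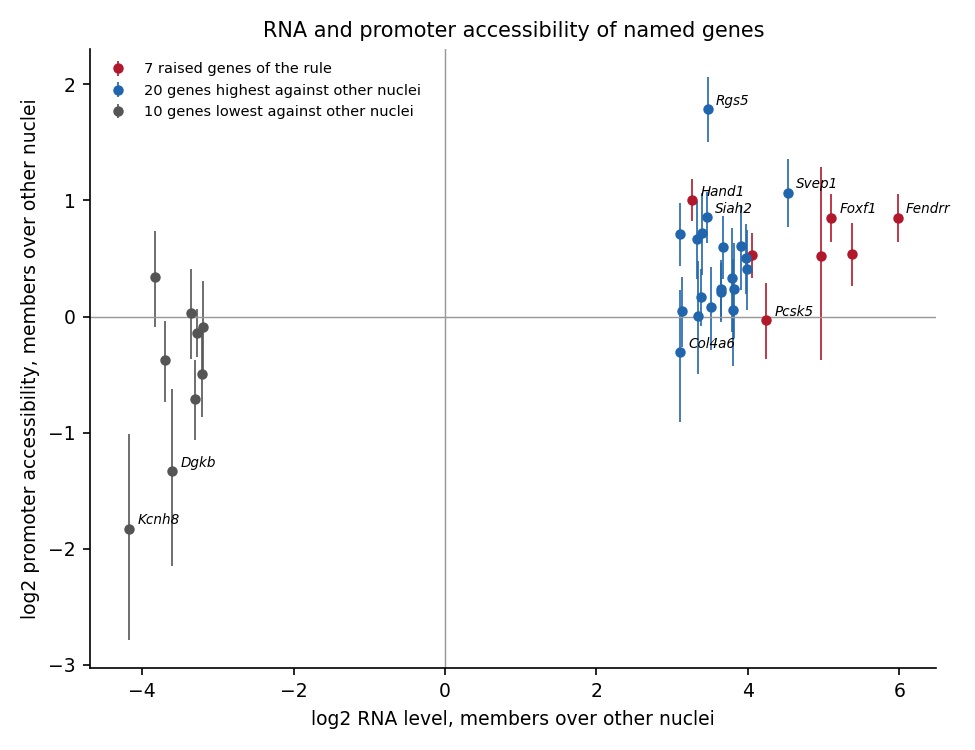
Difference of members over other nuclei on the log2 scale in RNA (horizontal) and in promoter accessibility with 95% intervals (vertical) for the 7 raised genes of the rule, the 20 genes highest and the 9 of 10 genes lowest against other nuclei that were counted at the promoter. Rgs5 has the highest promoter difference, and Pcsk5 and Col4a6 lie at or below 0.

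Some promoters were open with little RNA. The promoter of Tnni1, a slow troponin gene, was 7.56-fold (6.39 to 8.92) more accessible in members on 351 counts, and that of its neighbour Tnnt2, cardiac troponin T, 5.22-fold (4.12 to 6.55). Tnni1 had 12 RNA UMIs and Tnnt2 10 in all members, and Tnnt2 was seen in 1.75% of members. Upk3b, a mesothelial gene, had a promoter 6.31-fold (5.12 to 7.72) more accessible and no UMI in members. At Cacna1c a promoter 8.38-fold (6.23 to 11.2) more accessible went with RNA 6.53-fold higher, and at Etv2 one 3.60-fold (2.96 to 4.35) more accessible with RNA 4.36-fold higher. These 5 genes were picked after their values were seen. The Cacna1c promoter had 119 counts in members and passed the count minimum for promoters only through the members.

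Over single peaks, 5228 of 84624 (6.18%) were at least 2-fold more accessible in members and 16524 (19.5%) less. The share was 7.49% of distal peaks and 1.40% of promoter peaks. None of the 10 peaks with the highest fold lay in a promoter window. The first, chr7:144788342-144789130, lies 49.9 kb from the nearest start, that of Fgf3, and had 33.9 peak CPM in members, 1.38 in other nuclei, 0.926 in nascent mesoderm and 7.39 in haemato-endothelial nuclei, 24.5-fold (19.5 to 30.7). It was seen in 27.5% of members and 1.43% of other nuclei. A peak 19.5 kb from Crabp1 (chr9:54783766-54784653) was 20.2-fold higher, and a peak 20.3 kb from Gata5 (chr2:180354555-180355489) 14.6-fold, with 19.4 peak CPM in haemato-endothelial nuclei against 42.7 in members. Peaks between the annotated starts of Kif26b (chr1:178661083-178662051, 14.8-fold) and of Dab2ip (chr2:35568319-35569131, 17.8-fold) were also among them, the former beside a gene whose RNA was 8.58-fold higher. All 10 were at least 5.79-fold higher than in nascent mesoderm and at least 2.20-fold higher than in haemato-endothelial nuclei. Because these peaks were chosen by their fold over other nuclei, which include both sets, these values describe them and test nothing. Among the 10, the peaks nearest to Fgf3, Crabp1, Dab2ip, Zfp703 and Sgms1 passed the count minimum for peaks only through the members. They had 280, 272, 207, 175 and 199 counts in members and 316, 373, 322, 333 and 380 in other nuclei.

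Sequence differed between the promoters more accessible in members and all promoters counted, and in part likewise for the less accessible ones. Of 360 promoters matched in RefSeq that were at least 1.5-fold more accessible, the GATA core AGATAA was found on either strand in 15%, against 6.61% of all 13205 promoters of the same length. CATCTG, an E-box that Hand factors can bind, was in 19.7% against 11.9%, TGTTTAC (forkhead) in 4.17% against 2.55% and GGTGTGA (T-box) in 5.0% against 3.67%. No motif contains another, though matches can overlap at their ends. The GC-box GGGCGG was in 33.1% against 61.5%, and median G and C content was 55.0% against 60.7%. The 953 promoters at least 1.5-fold less accessible also had a low GC content, with a median of 53.7%, and held GGGCGG in 35.6%. They held AGATAA in 9.55%, CATCTG in 14.6%, TGTTTAC in 4.72% and GGTGTGA in 6.30%. The promoters of Tbx20 and Unc5c printed above hold none of the first 4 motifs. A match describes letters only, and base composition moved with the motif shares, whose part was not tested.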

How the data were processed

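The matrix of whole-number counts (RNA UMIs per gene and counts per accessibility peak, not normalized) was deposited by the authors, and per the submitters' processing notes Cell Ranger ARC 2.0.0 and mm10 were used. It held 32285 genes, 229480 peaks and 15341 barcodes, with 182201512 UMIs and 273131304 peak counts. The aligner, the peak caller, the counting strand and any further barcode filter are not given in the sources used here. Both members and gene lists were chosen with earlier results of these data known.

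Counts were summed over each set of nuclei and divided by that set's total. Folds carry exact conditional intervals, single levels exact Poisson intervals and shares exact binomial (Clopper-Pearson) intervals. Of the nonzero peak values 86.4% were even, as when both ends of a fragment are counted, so accessibility intervals were made from fragment numbers taken as the count over 2, upward to a whole number, and rescaled to the fold in counts. Genes needed 200 UMIs, and promoters and peaks 500 counts, over the depth range. Differences were called at 2-fold for RNA and peaks and 1.5-fold for promoters. A promoter window held 1000 bp before and 100 bp after a start, with strand inferred from RefSeq genes of GRCm38.p6 (7602 genes undecided, 1000 bp to each side). Coordinates are those of the files, counted from 1. Exons, introns and UTRs were not annotated here.

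Peaks were clustered by TF-IDF, 30 singular vectors without the first, 15 neighbours and leiden (leidenalg 0.10.2) at resolution 1. Scrublet in scanpy 1.11.5 called doublets, which were kept. The ratio and interval were tested on simulated data. The named genes were the 10 of the rule, the 20 highest with at least 100 UMIs and a UMI in 20% of members, the 10 lowest, the 10 highest and lowest against each comparison set, the extremes and key roles of each list, and the 10 peaks with the highest fold. Gene symbols came from the files. Thinned shares are the expected shares at 3000 UMIs per nucleus, and no nucleus was shallower. The promoter table matched 20267 genes of the files. Alternatives changed the number of members, the depth range, doublets, the score, the summing, the count minimums, the promoter window and the cluster resolution.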

Additional observations from a re-analysis of the deposited data

How the results depend on the processing

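The counts of genes and peaks past their folds, the summed promoter fold and the cluster share were computed again under each alternative. Only the summed promoter fold has a direction, and it did not reverse. Of all these values, 50 stayed within 1.5 times of the count or within the interval and 10 did not. Without a filter on low counts, 2660 genes were at least 2-fold higher in RNA and 9393 lower, and 1250 promoters were at least 1.5-fold higher and 2690 lower, because genes with few counts enter. With a minimum of 200 counts, 14830 peaks were at least 2-fold higher. The summed promoter fold of the 7 marker genes was 1.45 with the 800 highest scores and 1.46 with a promoter window of 2000 bp, and the cause was not tested. The share of members in their leading accessibility cluster was 61.3% at resolution 2, 93.0% for the 200 highest scores and 76.1% for the 800 highest. For single named genes, 498 values stayed within their main interval and 77 moved. With the 800 highest scores, the RNA fold of Frem1 was 6.12 against 10.1 and that of Hspa12b 8.05 against 12.8. With the wider promoter window, the promoter folds of Fbln2 and Nhsl2 were 2.93 and 1.77 against 1.42 and 1.04. Of the 400 members, 363 were kept by a score without Fendrr and Foxf1, 361 by one without the subtraction, 382 without doublet calls and 338 in the narrower depth range. No paired analysis was possible because there was 1 library per assay. The single library limits every value: variation between embryos was not measured, and counting error is the only error given.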
